A study of Mus musculus with 2 samples.

Results

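Mast cells and basophils are tissue and blood granulocytes that store proteases, heparin-like proteoglycans and histamine in granules and release them when antigen cross-links IgE on their high-affinity receptor. The mouse granule proteases are serine proteases of the chymase family (Cma1, Mcpt4), the tryptase family (Tpsb2, Prss34) and the granzyme-related family (Gzmb, Mcpt8), together with the metallo-carboxypeptidase Cpa3. Mcpt8 and Prss34 are known as basophil proteases, whereas Cma1, Mcpt4 and Tpsb2 are known from connective tissue mast cells. Both cell types can arise from bone marrow progenitors that express the transcription factor Gata2 and the histamine-forming enzyme Hdc.

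The 10 genes Mcpt8, Prss34, Cma1, Mcpt4, Tpsb2, Cpa3, Gzmb, Hdc, Ms4a2 and Fcer1a were followed here, out of 22652 genes in the count tables. They were picked by name because their co-detection in single cells, the separation of basophil from mast proteases, the share of their transcripts from single cells and their library levels had been seen to stand out in these same data. Those 4 measures therefore stand as descriptions with no test. All 10 genes were in both tables and each had at least 1 transcript in each library.

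The study profiled single cells from femurs of mouse fetuses of the C57BL/6 strain at stage E18.5 by whole transcriptome sequencing in microwells (BD Rhapsody). Cells carrying the lineage antigens Ter119, Gr-1, B220 or CD3e were removed with magnetic beads, which left hematopoietic stem and progenitor cells (HSPCs) beside vessel, cartilage and stromal cells. The first library was wild type, and the other was Bmx-CreER Wls, in which a Cre recombinase driven by the arterial endothelial Bmx promoter and switched on by tamoxifen given to the pregnant dams deletes Wls, the gene for the carrier that Wnt ligands need for secretion. Both genotypes went through the same lineage depletion, each genotype is represented by 1 library, and the labels say neither how many fetuses were pooled nor whether the wild-type dams received tamoxifen. Differences between the libraries accordingly have no replicate check, and genotype, fetus and library preparation cannot be told apart.

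After the study's cell filter the wild-type library held 5736 cells with 22266017 unique molecular identifier (UMI) counts and a median of 3128 per cell, and the Bmx-CreER Wls library held 6620 cells with 24385649 UMIs and a median of 3067. Levels are UMIs per 1000000 UMIs (CPM), and all intervals are exact 95% intervals that cover counting error only. Wls itself stood at 42.2 CPM in the endothelial-like cells of the wild type (84 UMIs) and at 23.0 CPM in those of Bmx-CreER Wls (42 UMIs). The cluster led by Mpo, Myb and Prtn3, which holds most of the 10 genes' transcripts, made up 8.68% of wild-type and 4.56% of Bmx-CreER Wls cells. The libraries shared 48 kept barcodes, among them that of 1 cell described below as an arm cell. Between the libraries the median log2 ratio of 13723 genes with at least 50 UMIs was -0.08.

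The proteases other than Cpa3 lie in gene clusters. On chromosome 14 (GRCm38, GENCODE annotation), Cma1 at chr14:55941451-55944675, Mcpt4 at chr14:56059629-56062313, Mcpt8 at chr14:56082166-56085273 and Gzmb at chr14:56258838-56262260, each with 5 exons and on the minus strand, span the 321 kb chymase and granzyme locus. Of the 15 protein-coding genes there, 8 were in the tables, and Cma2, Gzme and Gzmc had at most 3 UMIs in either library. The neighbour Ctsg, the neutrophil cathepsin G gene, had 632 and 733 UMIs in wild type and Bmx-CreER Wls. Prss34 at chr17:25298394-25300165 and Tpsb2 at chr17:25366305-25369098, both on the plus strand, mark the 76.0 kb tryptase locus, whose other 4 genes had 5 UMIs in wild type and 13 in Bmx-CreER Wls together. Cpa3 (chr3:20215620-20242181), Hdc (chr2:126593667-126619299), Ms4a2 (chr19:11615523-11623719) and Fcer1a (chr1:173221284-173227214), all on the minus strand, lie elsewhere. Few of the genes' transcripts could be confused with a relative: 7 of the 10 shared no 75-base stretch with another gene, Cma1 shared 1.67% of its stretches, Mcpt4 2.51% and Ms4a2 1.22%.

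The 250 bases before the start are shown for a basophil protease, for both chymases and for the shared carboxypeptidase. Sequences are from RefSeq promoters on GRCm38.p6, read 5' to 3' on the gene's strand, with the GATA motif GATAA, or TTATC where it lies on the opposite strand, in capitals.
Prss34 (chr17:25298144-25298393, plus): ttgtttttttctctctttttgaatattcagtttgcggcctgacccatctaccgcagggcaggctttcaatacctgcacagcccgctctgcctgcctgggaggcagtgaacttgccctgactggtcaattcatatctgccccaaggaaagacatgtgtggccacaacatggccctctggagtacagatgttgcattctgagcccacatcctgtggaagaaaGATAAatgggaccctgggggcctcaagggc
Cma1 (chr14:55944676-55944925, minus): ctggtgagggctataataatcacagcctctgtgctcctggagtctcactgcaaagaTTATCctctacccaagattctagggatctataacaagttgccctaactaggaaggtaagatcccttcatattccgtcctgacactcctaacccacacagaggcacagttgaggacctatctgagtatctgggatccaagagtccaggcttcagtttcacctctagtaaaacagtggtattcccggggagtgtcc
Mcpt4 (chr14:56062311-56062560, minus): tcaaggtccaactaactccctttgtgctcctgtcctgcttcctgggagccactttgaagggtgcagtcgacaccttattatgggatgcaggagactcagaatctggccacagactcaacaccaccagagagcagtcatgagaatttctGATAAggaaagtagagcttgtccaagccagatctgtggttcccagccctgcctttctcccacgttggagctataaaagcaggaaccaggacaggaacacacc
Cpa3 (chr3:20242182-20242431, minus): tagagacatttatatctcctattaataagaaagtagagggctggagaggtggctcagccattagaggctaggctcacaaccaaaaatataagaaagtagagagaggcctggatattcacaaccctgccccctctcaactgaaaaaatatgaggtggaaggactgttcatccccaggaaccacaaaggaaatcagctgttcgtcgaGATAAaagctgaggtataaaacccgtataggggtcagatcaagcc
Each of the 4 held 1 match, whose first base lay at position -30 in Prss34, -194 in Cma1, -102 in Mcpt4 and -45 in Cpa3, counted back from the start. Of the 9 genes matched in the promoter table, 6 held GATAA on either strand, against 22.6% of 32851 mouse promoters of this length. All 4 promoters shown are among these 6, while Mcpt8, Gzmb and Hdc, not shown, held none. The E-box CATGTG was present in 2 of 9 (12.3% of all promoters), the Runx motif TGTGGT in 5 of 9 (14%) and the C/EBP motif TTGCNNAA in 1 of 9 (9.56%), again on both strands. A match describes these letters and does not show a bound site. The gene outside the 9 was Tpsb2.

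The basophil proteases were present in both libraries at low levels. Mcpt8, the basophil granule protease used to mark this cell type, had 144 UMIs in 29 wild-type cells (6.47 CPM, 5.45 to 7.61) and 123 UMIs in 32 Bmx-CreER Wls cells (5.04 CPM, 4.19 to 6.02). Prss34, a basophil tryptase, had 429 UMIs in 27 wild-type cells (19.3 CPM, 17.5 to 21.2) and 308 UMIs in 21 Bmx-CreER Wls cells (12.6 CPM, 11.3 to 14.1). Bmx-CreER Wls over wild type, the ratio was 0.780 for Mcpt8 (0.608 to 0.999) and 0.656 for Prss34 (0.564 to 0.761). Neither was past 2-fold.

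The 3 mast cell proteases were higher in Bmx-CreER Wls, with few cells behind them. The chymase gene Cma1 had 129 UMIs in 12 wild-type cells (5.79 CPM, 4.84 to 6.88) and 328 UMIs in 8 Bmx-CreER Wls cells (13.5 CPM, 12.03 to 14.99), a ratio of 2.32 (1.89 to 2.87). The chymase gene Mcpt4 had 11 UMIs in 2 wild-type cells and 279 UMIs in 1 Bmx-CreER Wls cell, a ratio of 23.2 (12.7 to 46.9). Tpsb2, which encodes a mast cell tryptase, had 52 UMIs in 3 wild-type cells (2.34 CPM) and 343 UMIs in 4 Bmx-CreER Wls cells (14.1 CPM), a ratio of 6.02 (4.49 to 8.23). These were the 3 of 9 genes with at least 50 UMIs that were past 2-fold upward, where 1.2% of all 13723 genes were. None was past 2-fold downward, against 1.38% of all genes. Mcpt4 reached the limit of 50 UMIs only through Bmx-CreER Wls, so its direction follows from the filter.

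Single cells weighed heavily in these ratios. With the top cell of each library left out for each gene, the ratio of Cma1 was 1.89 (1.42 to 2.53), Mcpt4 fell to 1 UMI in wild type and 0 in Bmx-CreER Wls, and Tpsb2 stood at 9 against 85 UMIs (8.62, 4.33 to 19.5), of which 83 were in 1 cell. By number of cells the order was the other way for Cma1, with Bmx-CreER Wls over wild type at 0.578 for the share of cells with a UMI, though the interval of 0.205 to 1.54 spanned 1.

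Cpa3 and Hdc, which mast cells and basophils share, were more widely spread. Cpa3, the mast cell carboxypeptidase, had 951 UMIs in 107 wild-type cells (42.7 CPM, 40.0 to 45.5) and 1183 UMIs in 62 Bmx-CreER Wls cells (48.5 CPM, 45.8 to 51.4), a ratio of 1.14 (1.04 to 1.24). Without the top cell of each library, Cpa3 had 859 UMIs in each, and the ratio was 0.913. Hdc, histidine decarboxylase, had 1274 UMIs in 180 wild-type cells (57.2 CPM, 54.1 to 60.4) and 1189 UMIs in 113 Bmx-CreER Wls cells (48.8 CPM, 46.0 to 51.6), a ratio of 0.852 (0.787 to 0.923). Cells with a UMI were fewer in Bmx-CreER Wls for both genes, with ratios of 0.502 for Cpa3 (0.361 to 0.693) and 0.544 for Hdc (0.426 to 0.692), beside the ratio of the clusters above, 4.56% against 8.68% of cells, whose part in this was not tested.

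Gzmb, the serine protease granzyme B, had 345 UMIs in 20 wild-type cells (15.5 CPM) and 276 UMIs in 26 Bmx-CreER Wls cells (11.3 CPM), a ratio of 0.730 (0.621 to 0.858). The receptor genes were scarce. Ms4a2, the beta chain of the high-affinity IgE receptor, had 45 UMIs in 25 wild-type cells and 30 in 20 Bmx-CreER Wls cells, a ratio of 0.609 (0.370 to 0.988). Fcer1a, the IgE-binding alpha chain, had 3 and 2 UMIs, at or under the limit of 3 UMIs set for a ratio, so none is given.

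**Figure D1:**
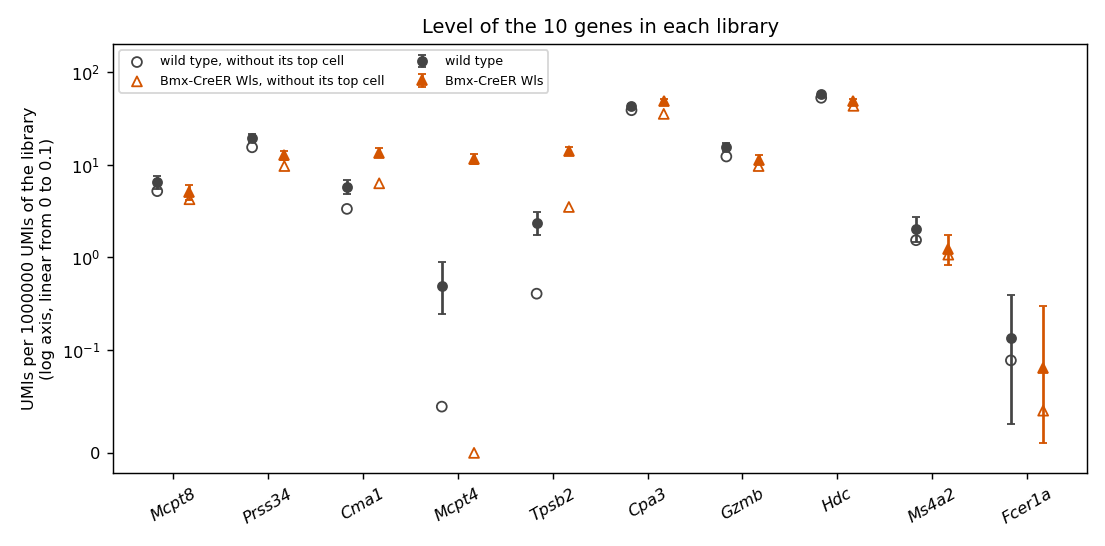
Level of each of the 10 genes in the wild-type library (circles) and the Bmx-CreER Wls library (triangles), in UMIs per 1000000 UMIs on a log axis that is linear from 0 to 0.1, with exact 95% Poisson intervals. Open symbols leave out the cell with most UMIs of that gene: Mcpt4 drops to 1 UMI in wild type and to 0 in Bmx-CreER Wls, while Hdc and Mcpt8 move little.

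The share of a gene's transcripts that came from a single cell separated the mast proteases from the rest. In the wild type the top cell held 42.6% of Cma1, 82.7% of Tpsb2 and 10 of the 11 UMIs of Mcpt4. In Bmx-CreER Wls it held 53.4% of Cma1, 75.2% of Tpsb2 and all UMIs of Mcpt4. For the basophil proteases the share was 20.1% and 16.3% for Mcpt8 and 20.3% and 23.7% for Prss34, in wild type and Bmx-CreER Wls.

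Cpa3 was spread over many cells in wild type (9.67% in the top cell) and less so in Bmx-CreER Wls (27.4%). Hdc had the smallest shares among the 10 genes, 8.24% and 11.8%, and 23 wild-type or 10 Bmx-CreER Wls cells were needed to reach 50% of its UMIs. For Gzmb the top cell held 21.2% and 14.9%. Of genes with at least 50 UMIs in the library, 2 of 7 members in wild type (Cma1 and Tpsb2) and 4 of 8 in Bmx-CreER Wls (Cma1, Mcpt4, Tpsb2 and Cpa3) had at least 25% of their UMIs in 1 cell. Over all such genes this held for 0.193% of 12408 in wild type and 0.2% of 12498 in Bmx-CreER Wls, and the median top-cell share was 0.764% and 0.735%.

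**Figure D2:**
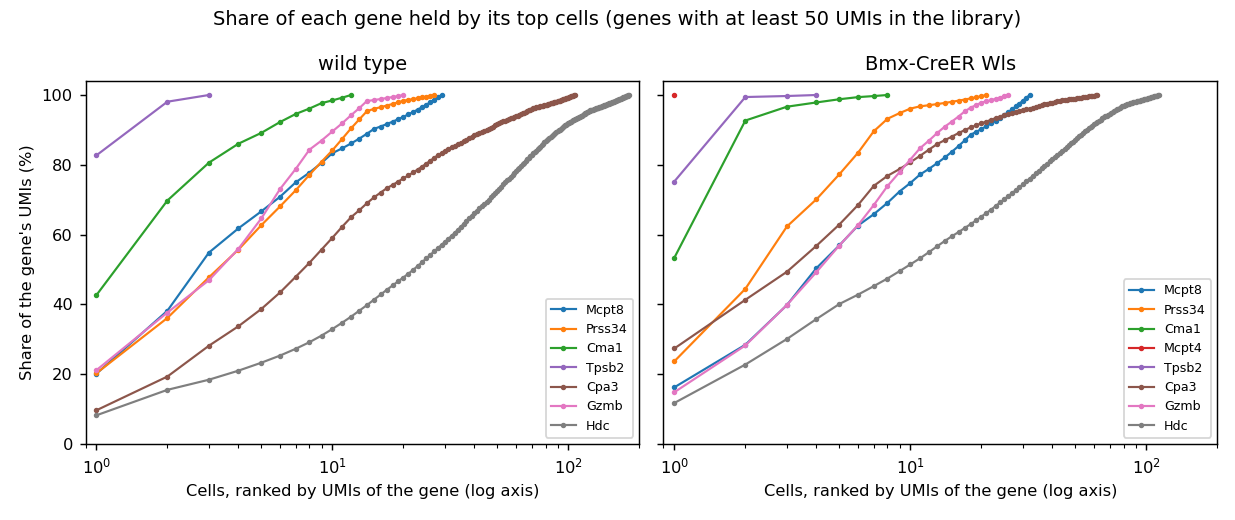
Cumulative share of a gene's UMIs (%) against the number of cells, ranked by their UMIs of that gene on a log axis, for members with at least 50 UMIs in the library. Tpsb2 and Cma1 pass 50% within 1 or 2 cells in both libraries, whereas Hdc needs 23 wild-type and 10 Bmx-CreER Wls cells.

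Cells with several of the genes were about as many as cells with 1. At least 1 gene was detected in 213 wild-type and 137 Bmx-CreER Wls cells, and 2 or more in 97 (45.5%) and 74 (54.0%). The highest number was 8 of 10 genes, in 1 wild-type cell, and 7 in 1 Bmx-CreER Wls cell. Cells with the genes were deeper: cells with none of the genes had a median of 3085 and 3034 UMIs, and cells with 1 gene had 6250.5 and 6342. Thinned to 1000 UMIs per cell, the share with 2 or more genes was 41.2% in Bmx-CreER Wls.

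The pair found in the most cells was Cpa3 with Hdc. Hdc was detected in 83 of 107 wild-type Cpa3 cells (77.6%, 68.5 to 85.1) and in 54 of 62 in Bmx-CreER Wls (87.1%, 76.2 to 94.3), whereas 3.14% and 1.71% of all cells had Hdc. In the other direction, Cpa3 was present in 46.1% of the wild-type and 47.8% of the Bmx-CreER Wls Hdc cells. Ms4a2 was detected almost entirely with Hdc, in 24 of 25 and 20 of 20 cells.

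Mcpt8 and Prss34 were found together in part of their cells. Prss34 was detected in 17 of 29 wild-type Mcpt8 cells (58.6%, 38.9 to 76.5) and 11 of 32 in Bmx-CreER Wls (34.4%, 18.6 to 53.2), against 0.471% and 0.317% of all cells. Cma1 cells held Hdc in 10 of 12 and 8 of 8 cells and Cpa3 in 10 of 12 and 7 of 8. They held Gzmb in 8 of 12 and 6 of 8 cells. Mcpt8 was present in 2 of 12 and 1 of 8 Cma1 cells, and Prss34 in 4 of 12 and 4 of 8.

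These shares were set beside a class that should lack the genes. In the chondrocyte-like cells, 1005 wild-type cells with a median of 3901 UMIs and 1221 Bmx-CreER Wls cells with a median of 3540, each gene was found in 0 to 2 cells, at most 0.199%. A count of 0 of 1005 cells allows a share of cells with a UMI of up to 0.299%, which is not a limit on cells expressing the gene. The cluster led by Mpo, Myb and Prtn3 was deeper, with medians of 7318.5 and 7468.5 UMIs. Thinned to 1000 UMIs per cell, 8.33% and 9.43% of its cells had Cpa3 and 12.8% and 15.8% had Hdc, whereas no gene passed 0.201% of the chondrocyte-like cells. Thinned shares of Mcpt4, Tpsb2 and Fcer1a in the cluster were between 0 and 1.01%, from at most 3 cells.

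Cells were next divided by their proteases. A cell with at least 5 UMIs of Mcpt8, Prss34, Cma1, Mcpt4 and Tpsb2 together was placed in the basophil arm when Mcpt8 and Prss34 held at least 90% of them, in the mast arm when Cma1, Mcpt4 and Tpsb2 did, and in both arms otherwise. The arms are ranges of a ratio and not proven cell types. The wild type held 15 basophil-arm cells of 5736 (0.262%, 0.146 to 0.431), 2 mast-arm cells (0.0349%) and 3 cells of both arms (0.0523%). Bmx-CreER Wls held 8 basophil-arm cells of 6620 (0.121%, 0.0522 to 0.238), 2 mast-arm cells (0.0302%) and 3 of both arms (0.0453%).

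On the basophil side, none of the 23 basophil-arm cells had a UMI of Cma1, Mcpt4 or Tpsb2, all had Prss34 and 21 had Mcpt8 as well. In wild type these cells held 0 to 29 UMIs of Mcpt8 and 2 to 87 of Prss34, and in Bmx-CreER Wls 2 to 20 and 4 to 73. On the mast side the separation was partial, since all 4 mast-arm cells carried Prss34, at 1 and 3 UMIs in wild type and 24 and 19 in Bmx-CreER Wls, and 1 carried Mcpt8 (2 UMIs). The rule itself limits such counts, because a cell with more than 10% of the other arm's UMIs is not placed in an arm. A Bmx-CreER Wls cell with 8 UMIs of Mcpt8 and 4 of Cma1, for example, counted as a cell of both arms.

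**Figure D3:**
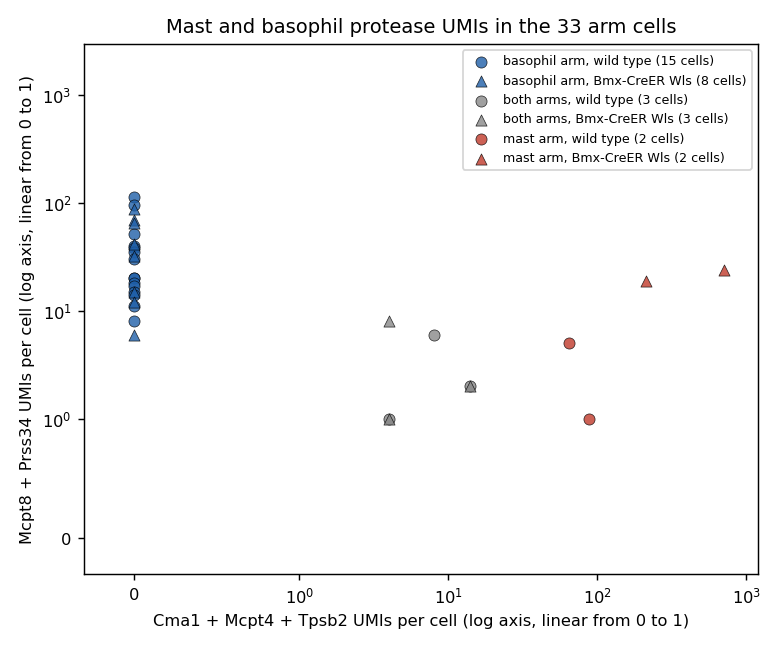
UMIs of Mcpt8 and Prss34 (vertical) against UMIs of Cma1, Mcpt4 and Tpsb2 (horizontal) in each of the 33 cells with at least 5 of these UMIs, on log axes that are linear from 0 to 1. The 23 basophil-arm cells sit at 0 on the horizontal axis, the 4 mast-arm cells lie to the right with 1 to 24 UMIs of Prss34, and the 6 cells of both arms lie between them.

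The 4 mast-arm cells differed from each other. The first wild-type cell (3609 UMIs in all) held 35 UMIs of Cma1, 10 of Mcpt4, 43 of Tpsb2, 84 of Cpa3 and 93 of Hdc. The second (7553 UMIs) held 55 of Cma1, 1 of Mcpt4, 8 of Tpsb2, 92 of Cpa3, 57 of Gzmb and 105 of Hdc, and was the cell with 8 of the 10 genes. Only this mast-arm cell had Gzmb.

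The first Bmx-CreER Wls mast-arm cell (6207 UMIs) held 175 UMIs of Cma1, 279 of Mcpt4, 258 of Tpsb2, 324 of Cpa3 and 140 of Hdc. The 10 genes made up 19.3% of its transcripts. The second (8071 UMIs) held 129 of Cma1, 0 of Mcpt4, 83 of Tpsb2, 165 of Cpa3 and 131 of Hdc. Mcpt4 was therefore in 3 of the 4 cells and strong in 1, while Cma1, Tpsb2, Cpa3 and Hdc were in all 4.

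The 6 cells of both arms carried few arm UMIs, between 5 and 16 each, and 4 of them had 80% to 90% of these in the mast arm. Each of these 4 held 1 or 2 UMIs of Prss34 and 0 of Mcpt8. In wild type the cells of both arms held 14, 7 and 4 UMIs of Cma1, and in Bmx-CreER Wls 13, 4 and 3. Cpa3 was high in each, at 38, 92 and 36 UMIs in wild type and 88, 72 and 66 in Bmx-CreER Wls. Gzmb stood at 29, 31 and 0 in wild type and at 4, 37 and 4 in Bmx-CreER Wls, and Mcpt4 was absent from all 6. The 3 cells just inside the limit, with 5 or 6 arm UMIs, had 1 to 66 UMIs of Cpa3 and 12 to 68 of Hdc. The 8 cells just outside, with 3 or 4 arm UMIs, had 0 to 43 of Cpa3 and 1 to 19 of Hdc.

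All 33 arm cells contained Hdc, and 30 contained Cpa3 as well. In the basophil arm, 20 of 23 cells had Cpa3, 13 had Ms4a2, 1 had Fcer1a and none had Gzmb. In the mast arm none of 4 had Ms4a2. All 20 wild-type arm cells are listed by the authors as myeloid progenitors, and 29 of the 33 lay in the cluster led by Mpo, Myb and Prtn3. The other 4, all of the basophil arm, lay in the cluster led by Lyz2, S100a9 and S100a8. A single arm cell, a wild-type basophil-arm cell with 180 UMIs of chondrocyte markers, was among the 5% of cells with the highest doublet scores.

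The shared genes differed in level between the arms, with UMIs summed over cells and libraries. Cpa3 stood at 577 CPM in the basophil arm (105 UMIs) and at 26140 CPM in the mast arm (665 UMIs), a mast over basophil ratio of 45.3 (36.8 to 56.2). Hdc stood at 1961 and 18436 CPM, a ratio of 9.40 (8.18 to 10.8). Both were intermediate in cells of both arms, at 9843 CPM for Cpa3 and 5373 CPM for Hdc. Per cell, basophil-arm cells held 0 to 22 UMIs of Cpa3 and mast-arm cells 84 to 324. The genes Basp1, Rab27b and Tpsg1 did not overlap between these arms either, but they passed their filters only through the mast arm. The share of all genes without overlap was not counted, so no result is read from it.

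Gzmb had 0 UMIs in the basophil arm, 57 in the mast arm, all in 1 cell, and 105 in cells of both arms (2636 CPM). Ms4a2 went the other way, with 33 UMIs in the basophil arm (181 CPM) and 0 in the mast arm, at least 1.54-fold higher against a floor of 3 UMIs. This floor, used for every fold given as at least, leaves out the counting error of the other side. With it, the exact lower limit for Ms4a2 was 1.18-fold, and the floor did not put Ms4a2 above 1-fold within either library (0.738 and 0.735). The arm proteases, which the rule used, stood at 1065 and 78.6 CPM for Mcpt8, and at 3647 and 1847 CPM for Prss34, in the basophil and the mast arm. Prss34, the basophil tryptase, thus differed by 1.97-fold (1.47 to 2.71), but the libraries were unlike: its basophil over mast ratio was 10.3 in wild type (4.01 to 38.2) and 1.18 in Bmx-CreER Wls (0.851 to 1.67). Without the Bmx-CreER Wls mast-arm cell with most arm UMIs the summed mast over basophil ratio of Prss34 moved from 0.507 to 0.328. The mast arm rests on 4 cells and 25440 UMIs, against 182082 in the basophil arm.

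Other mast cell genes were higher in the mast arm. Of 15 listed genes, 11 were in the tables. All 7 with at least 5 UMIs in the arm cells were past 2-fold toward the mast arm, with a median basophil over mast ratio of 0.148. Tpsg1, Mrgprb2 and Mitf reached this limit only through their mast-arm UMIs (7, 11 and 5), so their direction follows from the filter. Kit, Gata2, Slc18a2 and Il1rl1 reached it by their basophil-arm UMIs alone. Within each library taken alone, 6 of the 7 were past 2-fold toward the mast arm, all but Mrgprb2. Of all genes with at least 30 UMIs, a higher limit than the list's, 4.62% were. However, in wild type Mitf rested on 1 mast-arm UMI against 0 and Tpsg1 on 2 against 0. The intervals of Kit in Bmx-CreER Wls (3.33-fold, 0.974 to 10.5) and of Slc18a2 in wild type (2.36-fold, 0.697 to 6.44) spanned 1. Among all 6316 genes with at least 5 UMIs, 14.8% were past 2-fold toward the mast arm, 37.2% toward the basophil arm, and the median ratio was 1.26. Where the mast arm had 0 UMIs and was set to the floor of 3 UMIs, 11% were past 2-fold toward the basophil arm and the median was 0.699.

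The receptor tyrosine kinase gene Kit, which mast cells need to survive, stood at 132 CPM in the basophil and 668 CPM in the mast arm, a mast over basophil ratio of 5.07 (2.56 to 9.84). Il1rl1, the receptor for interleukin-33, stood at 395 and 2673 CPM (6.76, 4.78 to 9.55). Gata2, a transcription factor of both lineages, stood at 1148 and 4442 CPM (3.87, 3.05 to 4.89), and the vesicular monoamine transporter gene Slc18a2 at 187 and 629 CPM (3.37, 1.74 to 6.27). By library the mast over basophil ratio of Gata2 was 5.61 in wild type (4.12 to 7.57) and 2.52 in Bmx-CreER Wls (1.71 to 3.68), and without the deepest cell of each arm and library it was 2.25, while that of Slc18a2 was 6.57. Tpsg1, a membrane-anchored tryptase gene, had 0 UMIs in the basophil arm and 7 in 4 of 4 mast-arm cells, at least 16.7-fold higher (exact lower limit 10.3). Mitf, the transcription factor of mast cells and pigment cells, had 1 UMI in the basophil arm and 5 in the mast arm, and the 11 UMIs of the mast cell receptor gene Mrgprb2 came from 1 cell.

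The list of other basophil genes did not lean one way. Of 12 genes with at least 5 UMIs, 5 were past 2-fold toward the basophil arm, each with 0 UMIs in the mast arm, and 5 toward the mast arm, with a median ratio of 1.39. Those toward the basophil arm thus reached the limit of 5 UMIs only through that arm. With the mast arm set to the floor, 2 stayed past 2-fold toward the basophil arm, and the median was 0.489. Cebpa, the granulocyte transcription factor, had 53 UMIs in 18 basophil-arm cells (at least 2.47-fold higher), but its exact lower limit was 1.94 and the floor gave 1.31 and 0.935 within the libraries. The chemokine gene Ccl3 had 78 UMIs in 6 cells (at least 3.63-fold, exact lower limit 2.88), of which 63 came from 3 Bmx-CreER Wls cells. In wild type its 15 UMIs gave no fold above the floor (0.503).

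For 2 receptor genes of this list the ratio lay on opposite sides of 1 in the libraries, though for each gene the interval of 1 library spanned 1. Cd200r3, a receptor gene of basophils and mast cells, stood at 511 CPM in the mast arm against 192 CPM in the basophil arm (2.66-fold, 1.29 to 5.15). By library its mast over basophil ratio was 0.473 in wild type (0.0114 to 2.94), from 1 mast-arm UMI, and 4.28 in Bmx-CreER Wls (1.81 to 9.96). Csf2rb, the common chain of the interleukin-3 receptor, stood at 2437 against 736 CPM (3.31-fold, 2.41 to 4.51), with a ratio of 6.88 in wild type (4.77 to 9.85) and 0.713 in Bmx-CreER Wls (0.293 to 1.503). Within each library, 5 genes of the list were past 2-fold toward the basophil arm, each with 0 UMIs in the mast arm. Only 1, Il4, was toward the mast arm, from 1 UMI against 0 in Bmx-CreER Wls. Of all genes with at least 30 UMIs, a higher limit than the list's, 17.6% and 4.62% were past 2-fold in each library toward the basophil and the mast arm. With counts under 3 set to 3, these were 2.76% and 4.62%. So set, Cebpa in both libraries and Ccl3 in wild type were under 2-fold, as given above. Ccl4 had 2 wild-type basophil-arm UMIs, Il3ra had 1 in Bmx-CreER Wls and Il18rap had 6 in each library. These were too few to pass 2-fold above the floor in each library. The cytokine genes Il4 and Il13 had 2 and 1 UMIs in the basophil arm and 7 and 5 in the mast arm, through which alone they reached the list's limit.

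For signalling downstream of the IgE receptor, 10 of 11 listed genes had at least 5 UMIs, and 5 were past 2-fold toward the mast arm and 0 toward the basophil arm, with a median ratio of 0.466. Over all genes these shares were 14.8% and 37.2% (11% with the floor). Fcer1g, the gamma chain that the IgE receptor shares with other receptors, stood at 297 CPM in the basophil and 1572 CPM in the mast arm (5.30-fold, 3.43 to 8.13). The adaptor gene Lcp2 was 13.1-fold higher in the mast arm (4.45 to 43.2) and the phosphatase gene Inpp5d 5.11-fold (1.28 to 18.7). These 3 genes were past 2-fold in each library, as were 4.62% of all genes with at least 30 UMIs. However, the Bmx-CreER Wls intervals of Lcp2 (2.99-fold, 0.465 to 15.4) and Inpp5d (3.33-fold, 0.278 to 29.0) spanned 1. For Syk and Lat, the other 2 genes past 2-fold, the summed intervals spanned 1.

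Among 13 genes of granule assembly and release, 5 were past 2-fold toward the mast arm and 3 toward the basophil arm (2 with the floor), with a median ratio of 0.822, beside 14.8% and 37.2% of all genes (11% with the floor). Of these 8 genes, Ctsc, Cst7 and Lamp1 had intervals that spanned 1, as did Unc13d with 6 UMIs against 0, and the 4 mast-arm UMIs of Cst7 came from 1 cell. Serglycin (Srgn), the proteoglycan core that binds granule proteases, did not separate the arms, at 3619 and 4403 CPM (1.22-fold, 0.987 to 1.49). Ndst2, which sulfates heparin, was 6.20-fold higher in the mast arm (2.72 to 13.97), and the secretion gene Rab27b had 0 UMIs in the basophil arm and 15 in 4 of 4 mast-arm cells (at least 35.8-fold, exact lower limit 25.7). Rab27b reached the list's limit of 5 UMIs only through the mast arm. Lamp1, Unc13d and Ctsg reached it only through the basophil arm, so the filter helped to fix the direction of these genes. The tetraspanin gene Cd63 stood at 1554 CPM in the basophil arm and at 1179 CPM in the mast arm. Ctsg stood out on the basophil side, with 170 UMIs in 21 of 23 cells and 0 in the mast arm (at least 7.92-fold, exact lower limit 6.37).

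Of 11 transcription factor genes, 5 were past 2-fold toward the basophil arm (3 with the floor) and 3 toward the mast arm, Gata2, Mitf and Tal1. Over all genes the shares were 37.2% (11% with the floor) and 14.8%, so the 5 of 11 toward the basophil arm stand beside a high background. Mitf and Tal1 reached the list's limit of 5 UMIs only with their mast-arm UMIs. The 5 toward the basophil arm reached it only through that arm, so the filter helped to fix these directions. Runx1, a regulator of hematopoiesis, had 81 UMIs in 20 basophil-arm cells and 0 in the mast arm (at least 3.77-fold higher, exact lower limit 2.999). The LIM protein gene Lmo4 stood at 2389 and 1219 CPM in the basophil and the mast arm (1.96-fold, 1.36 to 2.92), and Cebpb at 264 and 118 CPM (2.24-fold, 0.720 to 11.2). Tal1 had 4 UMIs in the basophil arm and 13 in the mast arm, in 2 cells (23.3-fold, 7.19 to 97.9).

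Of the neutrophil progenitor markers, mainly Mpo and Ctsg were found in the basophil arm. Of 9 markers, 4 had UMIs there: Mpo, the myeloperoxidase gene, with 548 UMIs in 19 cells (3010 CPM), Ctsg, Prtn3 with 28 UMIs and Elane with 1, while S100a8, S100a9, Ngp, Ltf and Camp were at 0. Their sum was 0 to 117 UMIs per basophil-arm cell, with a median of 21 and at least 5 UMIs in 18 of 23 cells. All 4 mast-arm cells and all 6 cells of both arms were at 0. The part of these transcripts in the differences above was not tested. Of 6 measured cytotoxic lymphocyte markers only Nkg7 was detected in basophil-arm and mast-arm cells, and macrophage and monocyte markers reached 1 UMI in a cell. Eosinophil markers reached 47 UMIs in 1 basophil-arm cell of Bmx-CreER Wls.

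**Figure D4:**
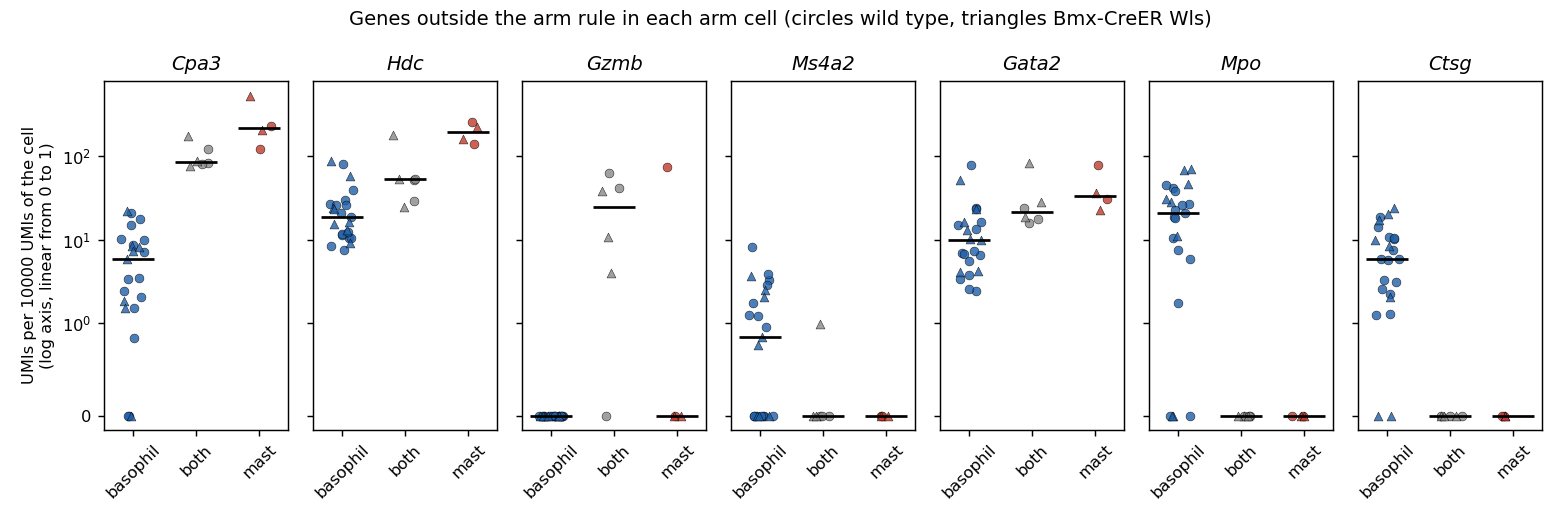
UMIs per 10000 UMIs of the cell for 4 members outside the arm rule and for Gata2, Mpo and Ctsg, in each basophil-arm, both-arm and mast-arm cell (circles wild type, triangles Bmx-CreER Wls), on a log axis that is linear from 0 to 1, with bars at the medians. Cpa3 stands higher in the mast-arm than in the basophil-arm cells, and Mpo and Ctsg appear, among these 33 cells, in the basophil arm alone.

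Outside members and lists, genes were ranked by the ratio of their summed levels, with counts under 3 UMIs set to 3. So ranked, the genes with the largest basophil over mast ratios that were past 2-fold in each library (17.6% of 1451 genes with at least 30 UMIs toward the basophil arm and 4.62% toward the mast arm, or 29.2% and 7.99% with the libraries summed, where a count of 0 was taken as past 2-fold) were Mpo, Plac8, Anxa1, Pa2g4, Nop10, Col2a1, Cd47 and Ly6e. With counts of 0 set to 3 UMIs, 16.3% and 7.99% were past 2-fold with the libraries summed, and with counts under 3 in a library set to 3, 2.76% and 4.62% were in each library. Plac8 had 483 UMIs in 22 basophil-arm cells and 3 in the mast arm. Anxa1, the annexin gene, had 374 and 1. Col2a1, the cartilage collagen gene, met the rule on 1 cell: of its 130 UMIs in the basophil arm, 120 came from the doublet-scored cell named above, and no other basophil-arm cell had more than 2. In Bmx-CreER Wls it had 4 UMIs against 0, which gives no fold above the floor (0.267). It stood at 31819 CPM in all other cells, against 714 in the basophil arm.

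Toward the mast arm the 8 genes were Basp1, Hes1, Creb3l1, Gpr65, Ppp1r15a, Serpinb1a, Slc7a5 and Lat2, each in 4 of 4 mast-arm cells. Basp1 had 0 UMIs in the basophil arm and 102 in the mast arm, and Hes1, a target gene of Notch signalling, had 1 and 75. Ppp1r15a, a stress response gene, had 5 and 36 UMIs. Lat2, an adaptor of IgE receptor signalling, had 12 UMIs in 9 basophil-arm cells and 18 in the 4 mast-arm cells.

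Across all 5736 wild-type cells, the summed Mcpt8 and Prss34 level correlated most with Alox5, the 5-lipoxygenase of leukotriene synthesis (Pearson r = 0.57, and 0.54 across 6620 Bmx-CreER Wls cells), then with Fcgr3 (0.45 and 0.44), Cd200r3 (0.44 and 0.48), Il1rl1 (0.39 and 0.46) and Ctsg (0.37 and 0.39). For the summed Cma1, Mcpt4 and Tpsb2 level they were Cx3cr1 (0.44 and 0.24), Gnaz (0.38 and 0.25), Slc7a8 (0.37 and 0.32), Il1rl1 (0.36 and 0.40) and Nkg7 (0.33 and 0.17). The cells share a library and most are at 0 for both measures, so these values are a description.

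Within the basophil arm no clear difference between the libraries was measured. Bmx-CreER Wls over wild type, Mcpt8 was at 1.02 (0.758 to 1.38), Prss34 at 0.958 (0.816 to 1.12), Hdc at 1.004 (0.806 to 1.25), Cpa3 at 1.21 (0.807 to 1.81) and Ms4a2 at 0.778 (0.341 to 1.67). Each of these 5 intervals spanned 1 and none of the genes was past 2-fold, where 2.29% of 1265 genes with at least 30 UMIs were past 2-fold upward and 3.16% downward. In the mast arm, with 2 cells in each library, Cma1 was at 2.64, Cpa3 at 2.17, Tpsb2 at 5.23 and Mcpt4 at 19.8, while Hdc was at 1.07 (0.888 to 1.29). Prss34 was at 8.40 (3.05 to 32.2), and Gzmb had 57 UMIs in wild type and 0 in Bmx-CreER Wls. These ratios compare 4 cells. In both arms, the ratios of Mcpt8, Prss34, Cma1, Mcpt4 and Tpsb2 are those of genes that the arm rule itself used.

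Gzmb marked a wider set of cells than the arms. Of its UMIs, 33.9% in wild type and 16.3% in Bmx-CreER Wls came from arm cells. At least 5 Gzmb UMIs were found in 14 cells of each library, of which 3 wild-type and 1 Bmx-CreER Wls cells were arm cells. The 11 other wild-type cells held 7 to 73 UMIs with a median of 9, and the 13 other Bmx-CreER Wls cells 5 to 41 with a median of 15.

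These cells carried mast and basophil genes. Hdc was present in all 28 and Cpa3 in 14 of 14 and 12 of 14. Of Gzmb UMIs, 342 of 345 in wild type and 269 of 276 in Bmx-CreER Wls lay in cells with Cpa3 or Hdc. Outside the arm cells, Cpa3 stood at 4570 and 3558 CPM in them, Hdc at 2392 and 2940 CPM, and Gata2, detected in all 24, at 3555 and 2587 CPM. Cma1 was present in 5 of 11 wild-type and 2 of 13 Bmx-CreER Wls cells, below the limit for an arm. Mcpt8 had 1 and 0 UMIs, Mpo 0 and 1, and Ctsg 0 in both libraries.

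Cytotoxic lymphocytes, which also make granzyme B, were checked by their markers. Nkg7 was present in 10 of 11 and 12 of 13 of these cells, whereas Klrd1, Gzma, Cd3e, Il2rb and Klrb1c were at 0 UMIs. All 14 wild-type cells with at least 5 Gzmb UMIs are listed by the authors as myeloid progenitors, and all 28 lay in the cluster led by Mpo, Myb and Prtn3.

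Cpa3 and Hdc reached further into the progenitors. Arm cells held 42.2% of Cpa3 and 38.1% of Hdc UMIs in wild type, and 64.3% and 46.7% in Bmx-CreER Wls. Outside the arm cells, Cpa3 was found in 89 and 50 cells, with up to 53 and 95 UMIs in a cell, and Hdc in 160 and 100 cells, with up to 37 and 87. At least 5 UMIs of both genes were found in 19 wild-type and 14 Bmx-CreER Wls cells outside the arms. Gata2 was present in 18 of 19 and 14 of 14 of these, Kit in 16 and 7, the progenitor antigen gene Cd34 in 18 and 10, Mpo in 12 and 6 and Gzmb in 7 and 7.

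By the authors' classes in the wild type, the genes lay in the 143 myeloid progenitors. Hdc stood there at 1206 CPM (1132 to 1283), Cpa3 at 1074 CPM (1004 to 1147), Prss34 at 517 CPM (469 to 568), Gzmb at 418 CPM (375 to 464), Mcpt8 at 171 CPM and Cma1 at 155 CPM. Without the 20 arm cells, Hdc was at 738 CPM, Cpa3 at 703 and Gzmb at 331, while Prss34 dropped to 7.35, Mcpt8 to 22.1 and Cma1 to 17.6 CPM.

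The 173 multipotent HSPCs held Hdc at 175 CPM (152 to 201) and Cpa3 at 48.6 CPM (36.7 to 63.1), with Mcpt8 at 2.60 CPM and Prss34 at 1.74 CPM. The 89 megakaryocyte progenitors held Hdc at 24.8 CPM (12.8 to 43.4) and Cpa3 at 14.5 CPM (5.82 to 29.8) and none of the other 8 genes. For Hdc the 3 classes were apart beyond their intervals. For Cpa3 the multipotent and megakaryocyte intervals did not overlap either. In the 139 neutrophil progenitors all 10 genes were at 0, although their median depth of 7357 UMIs exceeded that of the myeloid progenitors (4895 UMIs).

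**Figure D5:**
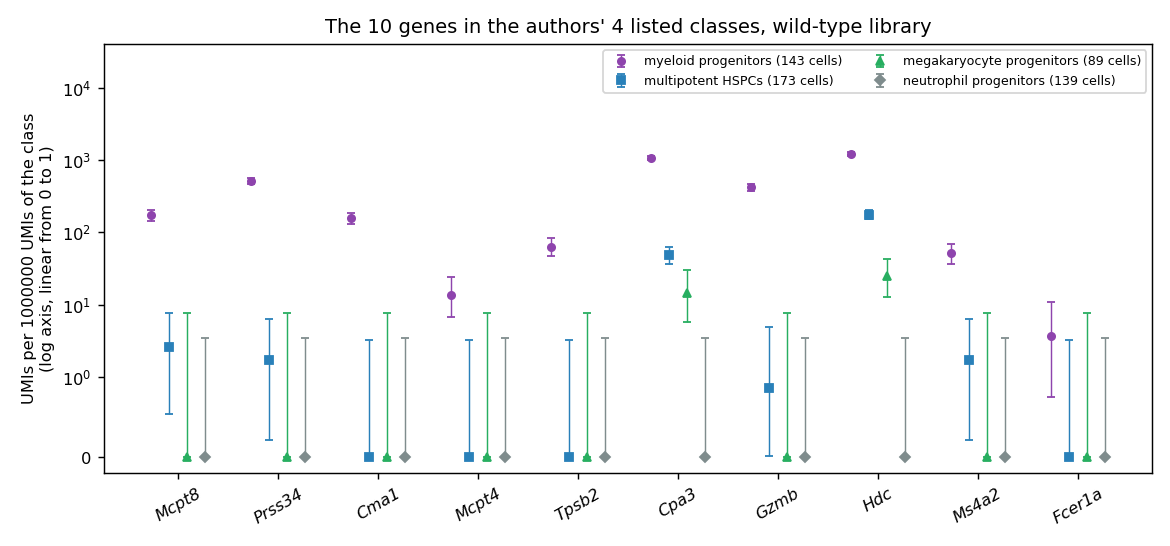
Level of the 10 genes in the authors' 4 listed wild-type classes, in UMIs per 1000000 UMIs of the class on a log axis that is linear from 0 to 1, with exact 95% Poisson intervals. The myeloid progenitors (143 cells) hold each gene at its highest level, multipotent HSPCs and megakaryocyte progenitors hold Cpa3 and Hdc, and the neutrophil progenitors are at 0 throughout.

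Clustering both libraries together gave classes for Bmx-CreER Wls as well. The cluster led by Mpo, Myb and Prtn3 (498 wild-type and 302 Bmx-CreER Wls cells) held Cpa3 at 250.5 and 510.2 CPM, Hdc at 314 and 487 CPM, Gzmb at 92.2 and 119.6 CPM, Prss34 at 103 and 127 CPM and Cma1 at 34.8 and 144 CPM, in wild type and Bmx-CreER Wls. Without arm cells, Cpa3 stood at 149 and 187 CPM, Hdc at 199 and 268 CPM and Gzmb at 62.9 and 104.7 CPM, whereas Prss34 stood at 1.96 and 2.30 CPM and Cma1 at 3.92 and 1.84 CPM. In all, 93.4% and 96.7% of the 10 genes' UMIs lay in this cluster. The cluster led by Lyz2, S100a9 and S100a8, of 50 and 59 cells, held Hdc at 548 and 358 CPM and Mcpt8 at 270.1 and 63.5 CPM. Without its 4 arm cells these were 328 and 212 CPM for Hdc, and 22.9 and 29.5 CPM for Mcpt8, from 3 and 5 UMIs. Among endothelial-like cells, Hdc had 19 UMIs in 16 of 587 wild-type cells (9.54 CPM) and 12 UMIs in 6 of 465 Bmx-CreER Wls cells (6.57 CPM).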

How the data were processed

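UMI counts per gene and cell were deposited by the authors for 2 libraries, with a list of wild-type HSPC classes; per the labels, reads were handled with bcl2fastq 2.19.1.403, UMI-tools 1.0.1, STAR 2.7.1a (mm10) and featureCounts 1.6.4. Following the study, barcodes were kept if they had over 200 but under 5000 detected genes and a mitochondrial share below 30%. Members and gene lists were chosen with earlier results of these data known. Sums were scaled to UMIs per 1000000, and Poisson, Clopper-Pearson and conditional binomial 95% intervals were computed with scipy 1.17.1; a count of 0 was bounded at 3 UMIs. With 1 library per genotype no test was run. Both libraries were clustered together with scanpy 1.11.5 (11 principal components, 20 neighbours, Leiden at 0.5), doublets were scored and kept, and edgeR 4.0.16 gave TMM factors only. Intervals were checked on simulated counts. The named genes are the 10 members, listed genes with at least 5 UMIs in arm cells, the 8 genes per arm with the most extreme ratio (counts under 3 set to 3) past 2-fold in each library, and the 5 most correlated genes per arm. Alternatives covered filters, scaling, detection limits, arm limits, thinning, clustering and leaving out single cells.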

Additional observations from a re-analysis of the deposited data

Results flagged for a closer look

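Some transcripts of the 10 genes lay in barcodes that the cell filter left out and that no comparison above used. In the 262 left-out wild-type barcodes (441988 UMIs), Mcpt8 had 6 UMIs and Prss34 had 11 UMIs, each in 1 barcode, and Hdc had 25 UMIs in 3 barcodes, 23 of them in 1. In the 205 left-out Bmx-CreER Wls barcodes (319342 UMIs), Mcpt8 had 5 UMIs in 2 barcodes, Cpa3 had 20 UMIs in 1 barcode and Hdc had 38 UMIs in 4 barcodes, 30 of them in 1. These were singled out because they exceed the 3 UMIs that a count of 0 allows. The level of Hdc in the left-out Bmx-CreER Wls barcodes was 119 CPM (84.2 to 163), against 48.8 CPM in kept cells.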

How the results depend on the processing

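No paired analysis was possible because each genotype has 1 library. For results that answer a comparison, 63 values stayed within their limits under the alternatives and 19 moved; for single genes, 153 stayed, 30 moved and 1 reversed. Without the cell with most UMIs of a gene, members past 2-fold higher numbered 1 in place of 3, members past 2-fold lower 1 in place of 0, and the ratio of Mcpt4 was 0, which rests on 1 wild-type UMI against 0, under the limit of 3 UMIs, and so shows no lower member. As a mean over cells, members past 2-fold lower numbered 1 (Prss34, 0.473). The share of member-positive cells with 2 or more genes was 54.1% in wild type at 2 UMIs or more, against 45.5%, and 41.2% in Bmx-CreER Wls after thinning to 1000 UMIs, against 54.0%. The wild-type basophil arm had 7 cells after thinning. The wild-type mast arm had 4 cells at a limit of 3 arm UMIs and 4 at 80% in an arm, and the Bmx-CreER Wls mast arm 4 at 80%. Cells of both arms numbered 1 in wild type and 1 in Bmx-CreER Wls at 80%, and 1 and 0 after thinning. Genes past 2-fold numbered 2422 higher and 2612 lower with at least 1 UMI, and 665 and 926 at 1.5-fold, against 165 and 190; TMM scaling gave 217 and 146. In wild type, the cluster share of member UMIs was 91.4% at resolution 1.0, and 88.9% lay in the authors' myeloid progenitors, against 93.4%. Without the deepest cell of each arm and library, the mast over basophil ratio was 64.1 for Cpa3, 2.25 for Gata2 and 6.57 for Slc18a2. In an alternative chosen after seeing the data, without the Bmx-CreER Wls mast-arm cell with most arm UMIs, the ratio was 30.7 for Cpa3 and 8.72 for Hdc, and 6 of 7 other mast cell genes were past 2-fold. Depth limits Fcer1a, Ms4a2 and every value of the mast arm. A gene at 0 in its 25440 UMIs may stand at up to 118 CPM.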
